A study of Rattus norvegicus with 6 samples.

Results

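The genes described here encode proteases that cut the extracellular matrix, their inhibitors, and the activators that start the plasmin cascade: the matrix metalloproteases Mmp2, Mmp7, Mmp9 and Mmp14, the tissue inhibitors of metalloproteases Timp2 and Timp3, the plasminogen activators Plau and Plat and the urokinase receptor gene Plaur. They were taken by name, and every array probe whose transcript accession maps to one of the 9 symbols was kept, which gave 13 probes of 61537 and 9 genes of the 15645 with a symbol. Mmp2, Mmp14, Plaur and Plat had 2 probes each and the others 1. All 13 probes passed the filter, which kept a probe if 3 or more of the 6 arrays measured it well above background. Mmp7 passed through the bromate arrays alone and Mmp9 through the water arrays alone, so for these probes a difference was built into passing.

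RNA came from the renal cortex of 6 male Sprague-Dawley (Crl:CD(SD)) rats, bought when 5 weeks old and kept on a basal diet, with 1 single-colour Agilent array per animal. The labels give 3 biological replicates that received potassium bromate at 100 mg/kg/day and 3 that received water, both over 4 weeks. Bromate is an oxidant that injures kidney tubules. Whole cortex mixes tubules, glomeruli, vessels and interstitium, so fewer cells of a type and less RNA per cell cannot be told apart. Precision is limited by there being 3 arrays per group. No probe was saturated (0 on every array), and 35621 to 38801 probes per array were well above background. Water replicate 1 lay alone on its slide, and a second slide carried the remaining 5 arrays.

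Matrix metalloproteases are made as inactive zymogens and use zinc to cut collagens, laminins, adhesion proteins and bound growth factors. The membrane-type protease encoded by Mmp14, with Timp2 as an adaptor, activates the zymogen of Mmp2 on the cell surface, while TIMPs block the active enzymes. Urokinase (Plau), held at the cell surface by its receptor (Plaur), and tissue plasminogen activator (Plat) turn plasminogen into plasmin, which dissolves fibrin and can activate metalloproteases. Tubule cells of the kidney make urokinase, and Mmp7 is known as a gene that is barely expressed in the healthy kidney and switched on in injured tubules.

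Of the 13 probes, 2 rose under bromate, those of Mmp7 and the brighter probe of Plat, 2 fell, those of Mmp9 and Timp3, and 9 did not pass. A probe passed at an adjusted p under 0.05 by limma's moderated test with Benjamini-Hochberg adjustment over all 37781 probes tested. Over all those probes 14.8% were called, against 30.8% of these 13, a comparison given as a description. The bromate and water values did not overlap for 8 of the 13 probes (61.5%), as for 41.1% of all probes tested. Mmp7 and Mmp9 count in both shares of the 13, though for them a difference was built into passing the filter. Some genes count by each of their probes. In 1 direction, 7.19% of all probes rose and 7.6% fell. The median absolute log2 difference was 0.61 over the 13 probes and 0.23 over all probes. A level is the log2 of a probe's signal divided by its array's 75th percentile, and differences are bromate minus water on the log2 scale ± standard error, with n = 3 per group. A level can be compared between arrays for 1 probe, not between probes.

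**Figure D1:**
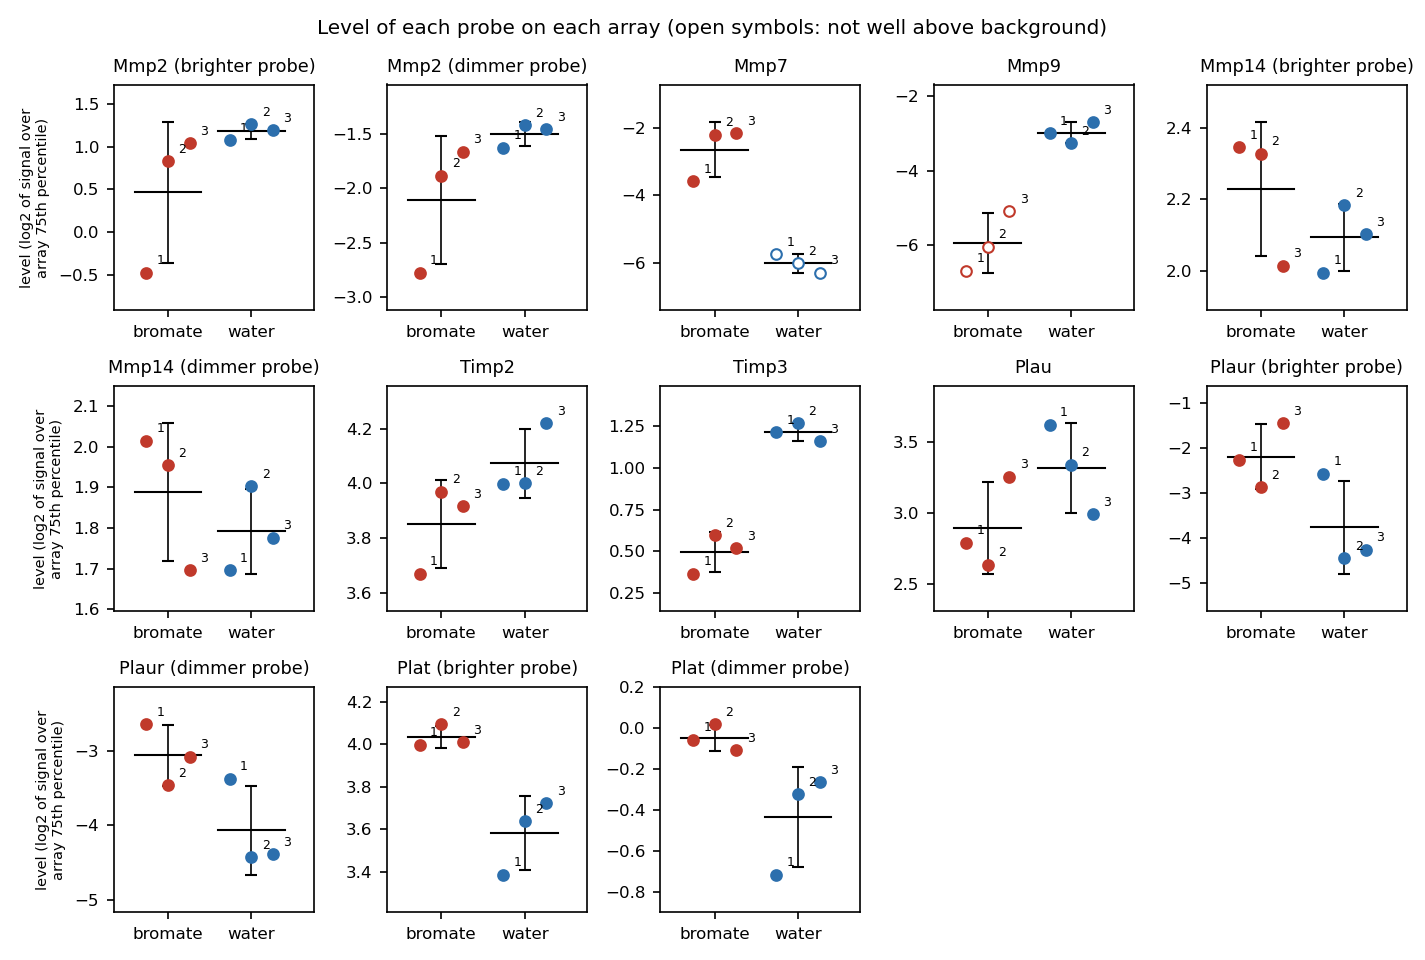
Level of each of the 13 probes on each array (log2 of the signal over the array's 75th percentile), bromate left and water right of each panel, with bars at the mean and SD of 3 arrays and small numbers for the replicate. Open symbols mark groups not well above background on any array, the water arrays for Mmp7 (-5.74 to -6.30) and the bromate arrays for Mmp9 (-6.68 to -5.09).

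The proximal promoters of the genes are shown because Mmp7 and Plaur are genes in which binding sites for the transcription factors AP-1 and PEA3 have been described, and because the genes of several AP-1 subunits were among those that rose. RefSeq entries on build GRCr8 were matched for 5 of the 9 genes (Mmp7, Timp2, Timp3, Plau and Plaur), each 300 bases long, from 250 bases before the gene's start to 50 after it. Those of Mmp7 (chr8:13132793-13133092, plus strand), Plaur (chr1:89181113-89181412, plus strand) and Timp3 (chr7:19459509-19459808, minus strand) are printed 5′ to 3′ in the direction of the gene. Capitals mark letters that match one of the motifs searched on both strands, and no matches overlap in these 3.
Mmp7: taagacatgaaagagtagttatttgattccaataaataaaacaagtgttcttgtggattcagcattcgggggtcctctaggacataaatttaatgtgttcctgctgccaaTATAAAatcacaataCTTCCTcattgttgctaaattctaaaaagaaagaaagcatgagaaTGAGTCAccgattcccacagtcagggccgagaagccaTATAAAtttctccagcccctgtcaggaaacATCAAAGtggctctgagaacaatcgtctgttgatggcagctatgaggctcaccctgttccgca
Plaur: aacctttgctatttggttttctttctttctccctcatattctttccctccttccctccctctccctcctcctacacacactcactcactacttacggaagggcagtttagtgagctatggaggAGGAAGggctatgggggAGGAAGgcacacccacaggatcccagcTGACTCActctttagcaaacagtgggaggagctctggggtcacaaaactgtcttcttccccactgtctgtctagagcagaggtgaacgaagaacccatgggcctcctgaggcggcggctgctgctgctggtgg
Timp3: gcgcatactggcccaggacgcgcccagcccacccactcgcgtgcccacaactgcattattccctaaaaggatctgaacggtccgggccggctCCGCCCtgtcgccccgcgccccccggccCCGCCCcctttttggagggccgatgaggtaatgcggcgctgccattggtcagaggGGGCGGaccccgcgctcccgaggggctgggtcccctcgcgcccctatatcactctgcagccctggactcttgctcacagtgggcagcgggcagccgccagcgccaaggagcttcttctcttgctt

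The AP-1 motif TGANTCA occurred once in the Mmp7 promoter, starting at position -80 from the gene's start, and once in that of Plaur, at -83, and in none of the windows of Timp2, Timp3 and Plau. It was present in 7.33% of all 33469 promoters of that length. The PEA3 motif AGGAAG had 1 match in Mmp7, at -125, and 2 in Plaur, at -127 and -110, and occurred in 34.5% of all promoters. Mmp7 alone of the 5 held the TCF/LEF motif CTTTGAT, at -13, and the TATA box TATAAA, at -140 and -43, which occurred in 3.63% and 14.2% of all promoters. Timp3 held 3 matches to the GC box GGGCGG, Plau 3 and Timp2 1, while Mmp7 and Plaur had none (33.1% of all promoters). These are matches of letters and no binding was measured.

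Mmp7 encodes matrilysin, a small secreted protease made by epithelial cells that sheds cell surface proteins such as E-cadherin. Its levels were -3.59, -2.20 and -2.15 on bromate replicates 1, 2 and 3, against -5.74, -6.02 and -6.30 on water replicates 1, 2 and 3. Every bromate array lay above every water array, and bromate replicate 1 had the lowest of the bromate values. The probe was well above background on all 3 bromate arrays and on 0 of the 3 water arrays, so the rise has only a bound. By the group means, Mmp7 was at least 5.11-fold higher under bromate. The measured means were -2.65 ± 0.82 on the bromate arrays and -6.02 ± 0.28 on the water arrays (SD, n = 3 each), a difference of 3.37 ± 0.41 (limma adjusted p = 0.00807). With normexp background correction and quantile normalization together, called normexp below, the difference was 1.53 (adjusted p = 0.00852). That correction adds an offset of 50 to every signal, which shrinks the differences of dim probes most. Leaving out any 1 array gave 3.13 to 3.85, with the call kept each time. Without water replicate 1, which leaves the slide that held 5 arrays, the difference was 3.51 (adjusted p = 0.0222). All these fits used the filter set on all 6 arrays, so a difference was built into passing there too. With no filter on dim probes the call was kept (adjusted p = 0.0219).

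Mmp9 encodes gelatinase B, a protease of denatured collagen and of collagen IV that leukocytes also carry. It went the other way from Mmp7, with levels of -6.68, -6.04 and -5.09 on bromate replicates 1, 2 and 3 and -3.0, -3.26 and -2.70 on water replicates 1, 2 and 3. The groups did not overlap, with no bromate array well above background and all 3 water arrays well above it. Mmp9 was at least 3.59-fold lower under bromate, from means of -5.94 ± 0.80 on the bromate arrays and -2.99 ± 0.28 on the water arrays (SD, n = 3 each). The fitted difference was -2.95 ± 0.41 (limma adjusted p = 0.0114). With normexp it was -1.18 (adjusted p = 0.0055), and on leaving out any 1 array -3.37 to -2.58, with the call kept. Without water replicate 1, which leaves the slide of 5 arrays, it was -2.95 (adjusted p = 0.0321). For Mmp9 too, these fits used the filter set on all 6 arrays, so a difference was built into passing. With no filter on dim probes the call was kept (adjusted p = 0.0293).

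Leukocytes can carry Mmp9, and their markers were read on the same arrays. Of 11 measured macrophage markers 2 rose and 0 fell, with a summed signal of 109 to 170 times the arrays' 75th percentile on the bromate arrays and 104 to 129 times on the water arrays. Of 6 measured neutrophil markers 1 rose and 0 fell, with a summed signal of 0.955 to 1.74 on the bromate arrays and 0.698 to 1.03 on the water arrays, and Elane and Cxcr2 were below the filter. The 6 measured averaged -3.52 to -2.75 on the bromate arrays and -3.45 to -2.94 on the water arrays, which overlap. Lymphocyte markers summed to 1.97 to 2.79 on the bromate arrays and 2.65 to 2.96 on the water arrays, and 0 of 6 measured were called (limma, all unadjusted p above 0.05). Over all genes with a symbol, by the brightest probe, 8.76% rose and 8.54% fell. Of the tubule markers, 7 of 13 fell for the proximal tubule, 7 of 8 for the thick limb and distal tubule and 7 of 10 for the collecting duct. Their summed signals were 1620 to 1898, 161 to 211 and 204 to 336 on the bromate arrays, against 2603 to 2943, 521 to 724 and 308 to 411 on the water arrays in the same order of lists. The part of these markers in the fall of Mmp9 was not tested.

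Mmp2 encodes gelatinase A, which is made largely by fibroblasts and other stromal cells. Its brighter probe had levels of -0.48, 0.83 and 1.05 on bromate replicates 1, 2 and 3, against 1.08, 1.26 and 1.20 on water replicates 1, 2 and 3. Its dimmer probe showed the same arrangement, with -2.78, -1.88 and -1.66 on the bromate arrays and -1.63, -1.42 and -1.45 on the water arrays. On both probes the bromate arrays lay below the water arrays, bromate replicate 3 by a narrow margin (gaps of 0.03 and 0.04), bromate replicate 2 by more and bromate replicate 1 by far the most. Neither passed, with differences of -0.72 ± 0.40 (95% interval -1.69 to 0.26, limma adjusted p = 0.265) and -0.61 ± 0.29 (-1.32 to 0.11, adjusted p = 0.208). Without bromate replicate 1 the differences were -0.24 and -0.27 (adjusted p = 0.233 and 0.211).

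The stromal markers were also low on that array. The 9 measured fibroblast and pericyte markers averaged 0.43, 1.34 and 1.40 on bromate replicates 1, 2 and 3 and 1.04, 1.13 and 0.96 on water replicates 1, 2 and 3. Their summed signal was 17.9 on bromate replicate 1 and 38.5 and 40.4 on the other bromate arrays, against 31.9 to 37.1 on the water arrays. As examples chosen after their values were seen, Col1a2, which encodes a chain of collagen I, had 2.56, 3.65 and 3.76 on the bromate arrays and 3.74, 3.97 and 3.71 on the water arrays, and the proteoglycan gene Dcn had 1.79, 3.29 and 3.33 on the bromate arrays and 2.28, 2.76 and 2.90 on the water arrays. On bromate replicates 2 and 3 the mean of the markers lay above all water arrays while Mmp2 lay below them, and 0 of the 9 markers were called by limma. Their part in the values of Mmp2 was not tested.

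**Figure D2:**
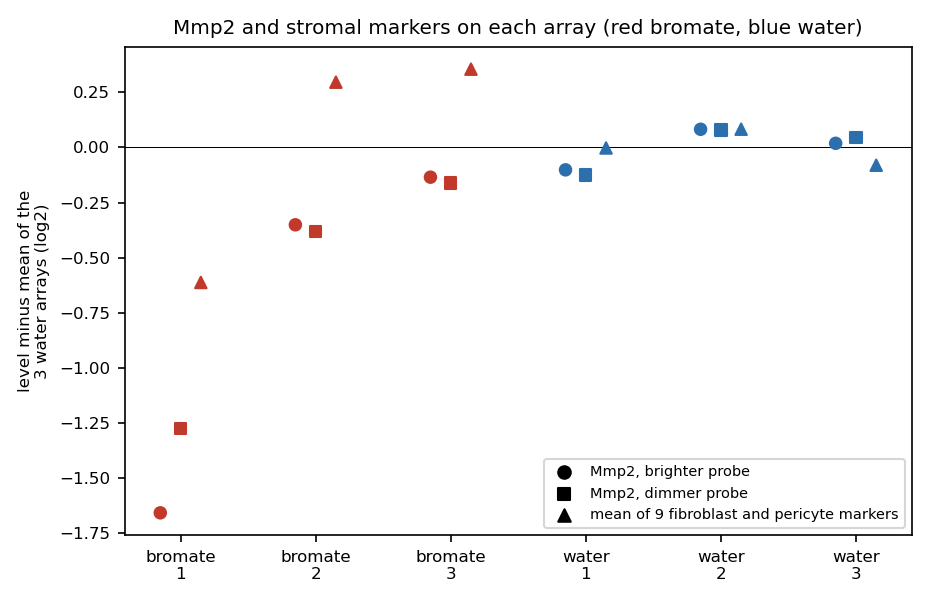
Mmp2 and the mean of 9 fibroblast and pericyte markers on each array, each as its log2 level minus its own mean over the 3 water arrays (vertical axis), with bromate arrays left and water arrays right. Bromate replicate 1 is lowest for both Mmp2 probes (levels -0.48 and -2.78) and for the markers (mean 0.43), while on bromate replicates 2 and 3 the markers are above 0 and Mmp2 is below it.

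Mmp14, whose product activates the zymogen of Mmp2 at the cell surface, had a narrow spread. The brighter probe read 2.35, 2.33 and 2.01 on bromate replicates 1, 2 and 3 and 2.00, 2.18 and 2.10 on water replicates 1, 2 and 3, and the dimmer probe 2.01, 1.95 and 1.70 on the bromate arrays and 1.70, 1.90 and 1.78 on the water arrays. The groups overlapped on both probes, since bromate replicate 3 fell among the water values. The differences were 0.14 ± 0.12 and 0.10 ± 0.12 (limma adjusted p = 0.475 and 0.603). Their 95% intervals, -0.16 to 0.43 and -0.19 to 0.38, leave room for a ratio of bromate to water from 0.878 to 1.35. Timp2, the inhibitor that also links Mmp14 to Mmp2, read 3.67, 3.97 and 3.92 on the bromate arrays and 4.0, 4.0 and 4.22 on the water arrays. The groups of Timp2 were set apart by 0.03 only, and the difference of -0.22 ± 0.12 did not pass (95% interval -0.51 to 0.07, adjusted p = 0.25).

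Timp3 encodes the inhibitor that binds to the matrix and also blocks proteases of the ADAM and ADAMTS families. Its levels were 0.37, 0.60 and 0.52 on bromate replicates 1, 2 and 3, against 1.21, 1.26 and 1.16 on water replicates 1, 2 and 3. All bromate arrays lay below all water arrays, with a gap of 0.56 between the groups and little spread within them. Timp3 fell 1.64-fold (-0.72 ± 0.09, 95% interval -0.94 to -0.49, limma adjusted p = 0.00952). Leaving out any 1 array gave -0.77 to -0.65, among them -0.71 without water replicate 1, which leaves the slide of 5 arrays (adjusted p = 0.0254). The call was kept in all 18 alternatives, some of which are nearly or wholly the same fit. Of 13 proximal tubule markers 7 fell in the same samples, where 8.54% of all genes with a symbol fell by their brightest probe. Of 8 podocyte markers 1 fell, 0 rose and 7 did not pass, and they averaged 0.33 to 0.44 on the bromate arrays and 0.47 to 0.78 on the water arrays. The part of these markers in the fall of Timp3 was not tested.

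Plat encodes tissue plasminogen activator, a product of endothelial cells and of several kidney cell types. The brighter probe read 4.0, 4.09 and 4.01 on bromate replicates 1, 2 and 3, against 3.38, 3.64 and 3.72 on water replicates 1, 2 and 3. The dimmer probe read -0.06, 0.02 and -0.11 on the bromate arrays and -0.72, -0.32 and -0.26 on the water arrays. On both probes the bromate values lay close together above all water values, and water replicate 1, the array alone on its slide, was the lowest. The brighter probe rose 1.37-fold (0.45 ± 0.11, 95% interval 0.18 to 0.72, limma adjusted p = 0.0466), while the dimmer, 1.31-fold higher (0.39 ± 0.14), did not pass (adjusted p = 0.114). The call of the brighter probe is the weakest of the 4: it was kept in 6 of 18 alternatives. It was lost on leaving out any 1 array (0.35 to 0.52, adjusted p = 0.0607 to 0.134). Without water replicate 1, which leaves the slide of 5 arrays, the difference was 0.35 (adjusted p = 0.0607). Endothelial markers averaged 0.10 to 0.28 on the bromate arrays and 0.28 to 0.61 on the water arrays, with 2 of 9 lower, 0 higher and 7 not passing. Over all genes with a symbol, 8.54% fell by their brightest probe. The part of the endothelial markers in the Plat values was not tested.

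Plau, the gene of urokinase, did not pass. Its levels were 2.79, 2.63 and 3.26 on bromate replicates 1, 2 and 3 and 3.62, 3.34 and 2.99 on water replicates 1, 2 and 3. The groups overlapped, since bromate replicate 3 lay above water replicate 3. The difference was -0.42 ± 0.22 (95% interval -0.97 to 0.13, limma adjusted p = 0.245) and -0.27 within the slide of 5 arrays (adjusted p = 0.452). The mean of 7 markers of the straight proximal tubule was 0.95, 0.45 and 1.18 on the bromate arrays, against 3.03, 2.18 and 1.24 on the water arrays. Of these 7 markers 0 were called by limma. In both groups the arrays stood in the same order for Plau as for these markers, but an order of 3 arrays per group cannot show a link. The part of that segment in the Plau values was not tested.

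Plaur, the gene of the receptor that gathers urokinase on the cell surface, had higher means under bromate on both probes but did not pass. The brighter probe read -2.25, -2.88 and -1.45 on bromate replicates 1, 2 and 3, against -2.57, -4.45 and -4.26 on water replicates 1, 2 and 3. The dimmer probe read -2.65, -3.46 and -3.08 on the bromate arrays and -3.38, -4.43 and -4.39 on the water arrays. Water replicate 1 lay within the bromate range on both probes, and all 3 bromate arrays exceeded the other water arrays. The differences were 1.57 ± 0.60 (95% interval 0.10 to 3.03, limma adjusted p = 0.13) and 1.00 ± 0.35 (0.15 to 1.86, adjusted p = 0.106). Among the 5 arrays of one slide, without water replicate 1, both probes passed, at 2.16 (adjusted p = 0.0423) and 1.35 (adjusted p = 0.0375). With normexp the differences were 0.97 and 0.50 (adjusted p = 0.0932 and 0.112).

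**Figure D3:**
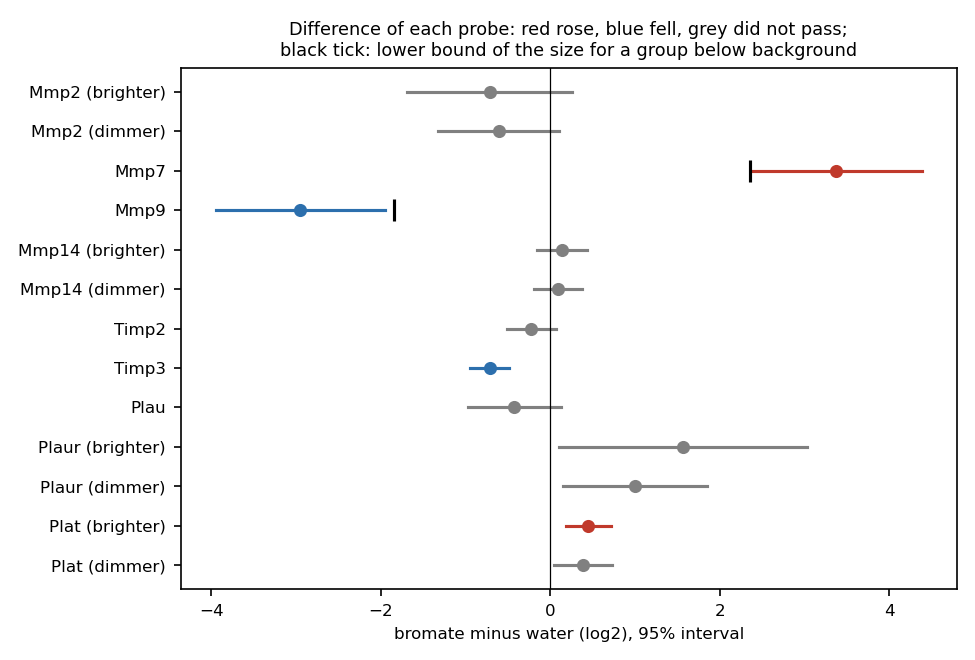
Bromate minus water difference of each probe (log2, horizontal axis) with its 95% interval from limma, red for probes that rose, blue for those that fell and grey for those that did not pass. Mmp7 (3.37) and Mmp9 (-2.95) lie far from 0 on opposite sides, with black ticks at the bounds of 2.35 and -1.84, while the intervals of Mmp2, Mmp14, Timp2 and Plau include 0.

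Read by the brightest probe, 4 of the 9 genes were called and 6 had groups that did not overlap, where 17.3% and 44.2% of 11572 genes with a symbol did. Mmp7 and Mmp9 are in both counts, though for them a difference was built into passing the filter. The same holds for every gene below whose fold is given as at least a value, and these genes count in their lists. Other genes of these pathways were also read by the brightest probe, against 8.76% of those 11572 that rose and 8.54% that fell. Of the other matrix metalloproteases 9 were below the filter, collagenase and stromelysin genes among them (Mmp13, Mmp8 and Mmp3), and of 8 measured 1 rose, 1 fell and 6 did not pass (median difference 0.01, against -0.02 over all these genes). Without water replicate 1, 2 of them fell. Mmp12, the gene of the macrophage elastase, rose 4.84-fold, with -3.21, -2.71 and -1.65 on the bromate arrays and -4.19, -4.87 and -5.34 on the water arrays (limma adjusted p = 0.0305). Its call was lost without bromate replicate 2 or 3 or water replicate 2 or 3 (adjusted p = 0.0554 to 0.0955), and with normexp its difference was 1.28 (adjusted p = 0.0181). The call of Mmp12 was also lost with no filter on dim probes (adjusted p = 0.0698) and with replicate numbers as a block (0.106). On water replicate 3 its level lay below the lowest signal well above background there (-5.11), so the fold rests partly on an unmeasured signal. Mmp24, a membrane-type protease gene, fell 1.84-fold. Of 16 measured ADAM, ADAMTS and meprin genes 2 rose, 1 fell and 13 did not pass. Adamts1, whose product cuts proteoglycans, rose 6.63-fold, with 5.31, 5.57 and 5.45 on the bromate arrays and 3.18, 2.97 and 1.99 on the water arrays (adjusted p = 0.00694). Adamts4, an aggrecanase gene, was at least 1.55-fold higher (adjusted p = 0.0265) and Mep1a, which encodes the brush border protease meprin alpha, 1.95-fold lower (adjusted p = 0.0381). The call of Adamts4 was lost without any 1 bromate array, water replicate 1 or water replicate 3 (adjusted p = 0.0621 to 0.0708), and its difference of 1.02 was 0.34 with normexp. Its call was also lost with no filter on dim probes (adjusted p = 0.0657) and with replicate numbers as a block (0.0773). That of Mep1a was lost without any 1 of the 6 arrays (0.0519 to 0.114).

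The inhibitors moved both ways. Of 10 other inhibitors measured 2 rose, 2 fell and 6 did not pass (median difference 0.19). Timp1 had 2.91, 3.55 and 3.79 on the bromate arrays and 1.27, 1.23 and 1.15 on the water arrays (2.20 ± 0.23, limma adjusted p = 0.00513). Timp4 fell 2.49-fold, with -1.11, -1.22 and -0.84 on the bromate arrays and 0.16, -0.01 and 0.63 on the water arrays (adjusted p = 0.0135, and 0.0521 without bromate replicate 2). Of the 4 TIMP genes, Timp1 thus rose, Timp3 and Timp4 fell and Timp2 did not pass. Serpinf2, the gene of the plasmin inhibitor alpha-2-antiplasmin, fell 2.14-fold (adjusted p = 0.0234), a call lost without any 1 bromate array or water replicate 2 (0.0558 to 0.0804).

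A list of 14 other genes covered plasminogen activation and binding and also other proteases, such as tissue kallikrein and prostasin. Of these, 2 rose, 3 fell and 9 did not pass (median difference -0.11). Those that rose encode the partners in a plasminogen-binding complex of the cell surface, annexin A2 (Anxa2, 3.80-fold, limma adjusted p = 0.00112) and S100a10 (4.35-fold, adjusted p = 0.000725). The tissue kallikrein gene Klk1 fell 2.88-fold, the prostasin gene Prss8 1.85-fold and, named after its value was seen, the enolase gene Eno1 1.28-fold (adjusted p = 0.0436). The call of Eno1 was lost without any 1 of the 6 arrays, with quantile normalization and with no filter on dim probes. Plg, the gene of plasminogen itself, did not pass (-0.37 ± 0.15, adjusted p = 0.145), with -0.16, -0.18 and -0.14 on the bromate arrays and -0.11, 0.39 and 0.35 on the water arrays. Without water replicate 1 the difference of Plg was -0.53 and passed (adjusted p = 0.0242). The plasminogen receptor gene Plgrkt did not pass (0.15 ± 0.12, adjusted p = 0.419).

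Among 27 substrates and factors released by these proteases 8 rose, 3 fell and 16 did not pass (median difference 0.18). Among those that rose were the fibrinogen genes Fgg (at least 15.02-fold) and Fgb (25.03-fold, limma adjusted p = 0.000179) and Spp1, a substrate of several metalloproteases (28.3-fold, adjusted p = 7.42e-05). Named after their values were seen, the 3 that fell were Vtn, which encodes vitronectin, a partner of the urokinase receptor (at least 1.62-fold), Igfbp3 (2.99-fold) and Igfbp5 (2.22-fold). Vtn passed the filter through the water arrays alone. Only 1 of the list fell without water replicate 2 and with replicate numbers as a block. With no filter on dim probes 2 fell, as without bromate replicate 1 or 2 or water replicate 1 or 3. The interstitial collagen genes Col1a1, Col1a2 and Col3a1, also named after their values were seen, did not pass (-0.41, -0.49 and -0.20). Of 19 regulators measured 10 rose, 0 fell and 9 did not pass (median difference 0.68), and 5 or 6 rose without any 1 bromate array or water replicate 2. The AP-1 subunit genes Fosl1 (at least 19.03-fold) and Fosl2 (3.28-fold), the epithelial ETS factor gene Elf3 (3.37-fold) and Egr1 (4.91-fold, adjusted p = 0.0502 without water replicate 2) led that list.

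**Figure D4:**
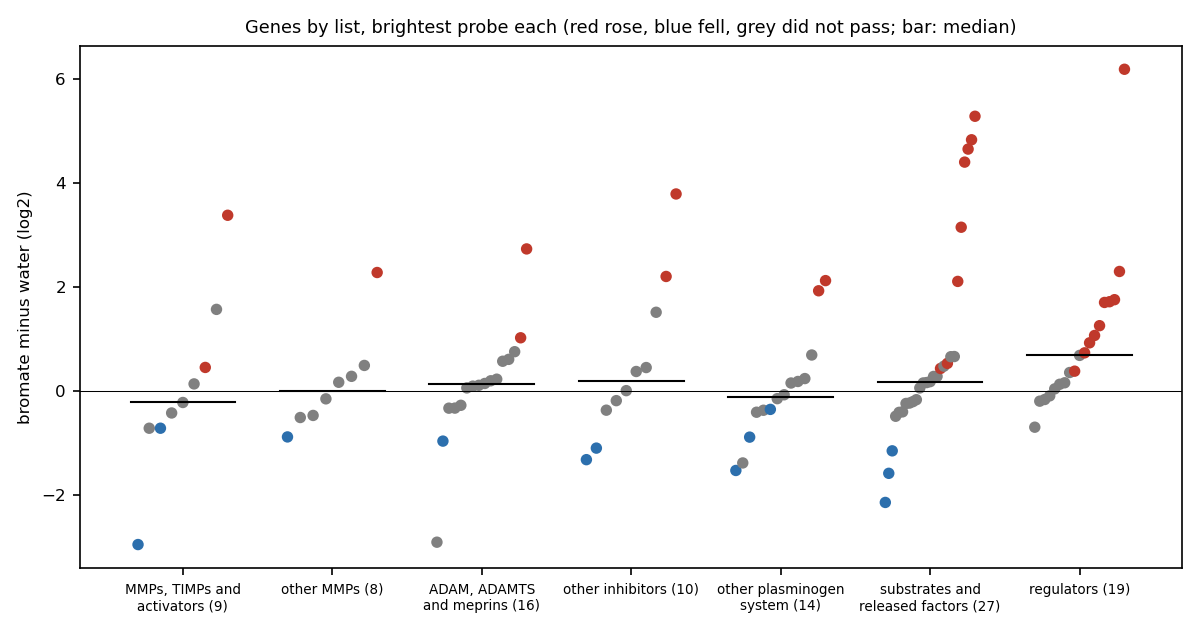
Bromate minus water difference (log2, vertical axis) of each gene by its brightest probe, for the 9 genes described and 6 lists of related genes, with the number measured in brackets and a bar at each median. The 9 genes spread to both sides of 0, from Mmp9 (-2.95) to Mmp7 (3.37), and the regulators have the highest median (0.68).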

How the data were processed

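The submitters' processing notes name Agilent Feature Extraction 10.7. Per the file headers, each spot's intensity had its background subtracted and its spatial trend removed, with no scaling from array to array. The deposited value table holds a linear ratio, which equalled that intensity over the array's 75th percentile to within 0.367% (values of at least 0.1), and its column medians were 0.1025, 0.1054 and 0.1026 for bromate and 0.1043, 0.1049 and 0.103 for water replicates 1 to 3. Per the labels, no software is named for that table. Here the log2 intensity was reduced by that of the array's 75th percentile, with control and outlier spots left out. Probes were named by accession through RefSeq's gene table (GRCr8), which named 28206. Probes well above background on at least 3 arrays (37781, with 2 left out for outlier spots) entered limma 3.58.1 (lmFit, eBayes, R 4.3.3), 3 bromate against 3 water arrays. The procedure was tested on simulated data. No genome of the array's build, rn4, was used, so probes have no coordinates.

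Where no array of a group measured a probe well above background, its fold is a bound. Such a probe passed the filter through the other group alone, so a difference was built into passing. The brighter group's mean was set against the dimmer group's mean of, per array, the probe's own signal or the lowest signal that any probe well above background had there, whichever was higher. A bound is thus a difference of group means, takes no account of the spread between arrays and is not a minimum for single animals. The members and lists were chosen with earlier results of these data known. Named from each list were up to 4 called genes of largest change, with Timp1, Plg, Plgrkt and Serpinf2. A few such genes are not reported here. Of 230 list entries, 205 had a named probe and 181 were measured. Alternatives changed the scaling, background correction, filter, probe choice, variance model, slide, pairing and each array. Since water replicate 1 lay alone on its slide, the slide alternative is the same fit as that without this array. The deposited values, also among the alternatives, nearly repeat the main scaling.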

Additional observations from a re-analysis of the deposited data

How the results depend on the processing

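Of the 13 probes, those of Mmp9 and Timp3 kept their calls under all alternatives in which they were tested. Leaving out 1 array at a time gave 871 to 2064 probes that rose and 785 to 2310 that fell, against 2717 and 2873 with all arrays, with 2 of the 13 falling each time and 1 to 3 rising, and 5 to 9 genes of the 6 lists falling, against 10. The counts that rose and fell were 1784 and 1527 without bromate replicate 1, 951 and 850 without bromate replicate 2, 1238 and 1320 without bromate replicate 3, 871 and 785 without water replicate 2 and 1101 and 1087 without water replicate 3. With no filter on dim probes 1091 rose and 1023 fell, 1 of the 13 probes rose and 6 list genes fell. Of the 13, 1 rose with quantile normalization, with the scaling percentile taken over probes that no array missed and with the mean of a gene's probes, and 4 rose with array weights. The filter on all 6 arrays, which removes Mmp7 and Mmp9, left 1 that rose and 1 that fell. Bromate and water replicates of the same number did not deviate together (correlations of 0.06, 0.07 and -0.09 over probes). With so few arrays per group this cannot decide whether the numbers pair the animals. With the replicate block 829 probes rose and 757 fell, 0 of the 13 rose (Mmp7 adjusted p = 0.051) and 4 list genes fell. Array signal over background limits Mmp7 and Mmp9, whose sizes are bounds, and the cause of the other changes was not tested.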

Other observations

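Mep1b, which encodes the brush border protease meprin beta and was chosen after its values were seen, varied widely between animals of one group. Its levels were 1.52, -2.86 and 1.54 on bromate replicates 1, 2 and 3 and 5.43, 3.31 and 0.16 on water replicates 1, 2 and 3, a difference of -2.90 ± 1.73 that did not pass (limma adjusted p = 0.295). The straight proximal tubule gene Slc7a13 stood in the same order on the water arrays, with 1.72, -0.61 and 2.01 on the bromate arrays and 7.61, 4.83 and 2.54 on the water arrays. A2m, the gene of the broad protease inhibitor alpha-2-macroglobulin, also chosen after its values were seen, had -2.89, -1.68 and -1.37 on the bromate arrays and -3.70, -3.30 and -3.46 on the water arrays. The groups did not overlap, and the difference of 1.51 ± 0.40 did not pass (adjusted p = 0.0555). Bromate replicate 1 was the lowest of the bromate arrays for A2m, as for Mmp2, Mmp7, Mmp9, Timp2, Timp3 and the brighter probe of Plat. It was not the lowest for Mmp14, Plau, Plaur or the dimmer probe of Plat.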
